A study of Mus musculus with 4 samples.

Results

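The endoplasmic reticulum (ER) stress and secretory pathway genes described here are 34 genes out of 27179 in the deposited table, chosen by name: sensors of unfolded protein, ER chaperones, folding enzymes, translocation and degradation genes, and genes of the COPII vesicle coat. All 34 were found in the table by NCBI gene identifier, and all 34 entered the test. RNA was sequenced from group 2 innate lymphoid cells (ILC2s), tissue lymphocytes that secrete type 2 cytokines, which had been isolated by sorting out of C57BL/6J mouse colon. There were 2 mice on a high-fiber diet and 2 mice on a control diet, and each library came from 1 mouse. The labels give neither the kind of fiber, the time on the diet, the age of the mice nor the gates of the sort.

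Proteins bound for the cell surface or for secretion enter the ER through the SEC61 channel as they are made, lose their signal peptide, are folded by chaperones and disulfide isomerases, and leave in COPII vesicles. Misfolded chains are sent back to the cytosol and degraded. When unfolded chains build up, the sensors ATF6, IRE1 (encoded by Ern1) and PERK (encoded by Eif2ak3) start the unfolded protein response, in which cleaved ATF6 and the XBP1 protein made from spliced mRNA raise transcription of many of the genes below. Cells that secrete much protein, such as plasma cells, rely on this response, and ILC2s are themselves cytokine secretors.

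The DNA element through which ATF6 acts, the ER stress response element (ERSE), was looked for in the promoters of the members. This is a description of sequence, and no test was made of it. An ERSE was taken as CCAAT and CCACG with 9 bases between them, its variant ERSE-II as ATTGG and CCACG with 1 base between them, and the core of the unfolded protein response element (UPRE) as TGACGTG, each on both strands. RefSeq windows of 300 bases of GRCm38.p6, from 250 before to 50 after the annotated start, were at hand for 28 members. An ERSE was present in 8 of the 28 and an ERSE-II in 2 more, together 35.7%, against 0.181% of the 27025 genes with a window (49 genes). Of those 49 genes, 10 were members and 3 were other genes of the pathway. The members were chosen by name for a pathway whose genes ATF6 and XBP1 are known to raise. A higher share among them than over all genes is therefore no independent finding. The UPRE core was in 2 members (7.1%) and in 2.224% of all genes. A match describes the letters only, not binding, and a window without one says nothing about the factor.

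The ERSE and ERSE-II matches are shown with 5 bases on each side, read 5′ to 3′ along the strand that carries the match, with the fixed letters of the element in capitals. Chaperone genes held 6 of them, in 5 of the 7 chaperone genes with a window.
Hspa5, 65 to 47 bases before the start, chr2:34772020-34772048: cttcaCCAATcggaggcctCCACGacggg
Hsp90b1, 212 to 194 bases before the start, chr10:86705633-86705661: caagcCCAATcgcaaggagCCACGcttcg
Hsp90b1, 107 to 89 bases before the start, opposite strand to the gene, chr10:86705528-86705556: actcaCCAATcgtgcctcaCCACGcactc
Dnajc3, 105 to 87 bases before the start, chr14:118937822-118937850: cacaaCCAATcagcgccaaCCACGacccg
Creld2, 126 to 108 bases before the start, opposite strand to the gene, chr15:88819515-88819543: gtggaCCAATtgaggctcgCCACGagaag
Dnajb11 (ERSE-II, 7 to 17 bases after the start), chr16:22857847-22857867: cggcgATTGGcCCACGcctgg
Pdia6, 98 to 80 bases before the start, chr12:17266486-17266514: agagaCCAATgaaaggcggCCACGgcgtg
Canx, 145 to 127 bases before the start, chr11:50325795-50325823: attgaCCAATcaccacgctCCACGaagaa
Calr, 162 to 144 bases before the start, opposite strand to the gene, chr8:84847070-84847098: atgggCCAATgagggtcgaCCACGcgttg
Herpud1 (ERSE-II, 52 to 42 bases before the start), chr8:94386372-94386392: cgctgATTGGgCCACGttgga
Syvn1, 44 to 26 bases before the start, chr19:6046527-6046555: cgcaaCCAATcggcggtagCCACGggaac

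Whole windows are shown for Hsp90b1, which has the smallest p among the 10 genes with an ERSE or ERSE-II and holds 2 elements, and for Hspa5, the member of highest level, which holds an ERSE and a UPRE core 157 to 151 bases before the start. They are written along the strand of the gene, with the letters of the elements in capitals.
Hsp90b1, minus strand, chr10:86705395-86705694: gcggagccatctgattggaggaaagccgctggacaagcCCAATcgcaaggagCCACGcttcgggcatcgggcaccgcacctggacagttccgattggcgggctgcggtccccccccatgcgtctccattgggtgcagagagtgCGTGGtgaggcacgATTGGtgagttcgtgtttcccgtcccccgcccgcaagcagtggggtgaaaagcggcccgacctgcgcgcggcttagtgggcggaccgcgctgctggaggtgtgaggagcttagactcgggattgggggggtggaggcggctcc
Hspa5, plus strand, chr2:34771840-34772139: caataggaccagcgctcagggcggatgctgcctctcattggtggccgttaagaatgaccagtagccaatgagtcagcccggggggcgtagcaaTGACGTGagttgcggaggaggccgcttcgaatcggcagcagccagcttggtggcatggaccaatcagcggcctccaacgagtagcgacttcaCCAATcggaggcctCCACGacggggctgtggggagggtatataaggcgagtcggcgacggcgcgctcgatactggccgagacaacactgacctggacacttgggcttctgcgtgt

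**Figure D1:**
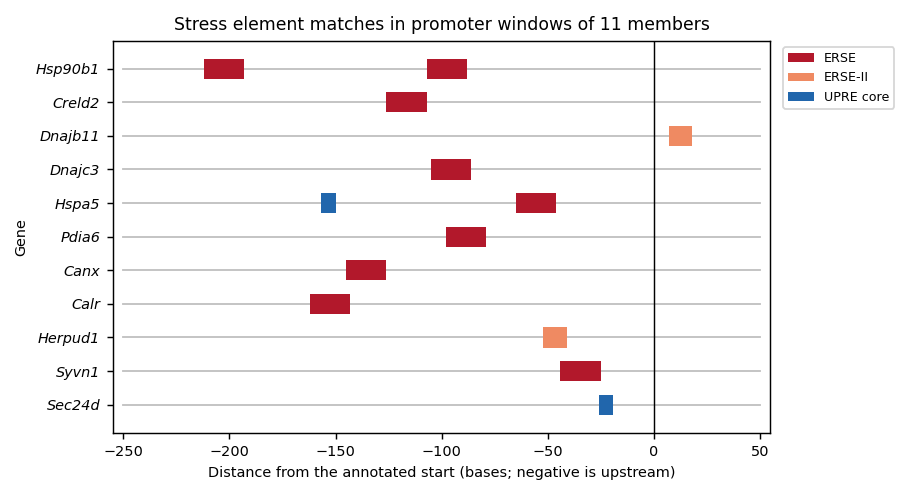
Positions of the matches in the windows of the 11 members that hold any, as distance in bases from the annotated start (negative is upstream), 1 grey line per gene. ERSE matches lie between 212 and 26 bases before the start, and the ERSE-II of Dnajb11 lies after it.

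Library totals were 29263068 and 20750263 counts in high-fiber mice and 30406730 and 20253987 counts in control mice. The sorted cells carried ILC2 transcripts: 12 ILC2 marker genes summed to 16130 and 13740 CPM (counts scaled to library size with TMM factors) in high-fiber mice and to 13160 and 11140 CPM in control mice. Of these 12, 10 had a positive log2 fold change (83.3%, median 0.19, high-fiber over control), against 48.8% of all tested genes. At an edgeR unadjusted p under 0.05, 2 were higher and 0 lower, against 4.7% and 4.1% of all tested genes. Gata3, the factor that defines the lineage, went the other way with overlapping diets. It was at 1296 and 766 CPM in high-fiber mice and at 1615 and 1026 CPM in control mice. The 34 members took up 1.83% and 1.68% of all counts in high-fiber mice and 1.72% and 1.69% in control mice. Their levels per kilobase of exon, averaged over the 4 libraries, ran from 0.573 CPM per kilobase for Hyou1 to 1627 CPM per kilobase for Hspa5. Pdia3 (730), Herpud1 (335.5) and Spcs2 (270.0) followed Hspa5 on the same scale.

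**Figure D2:**
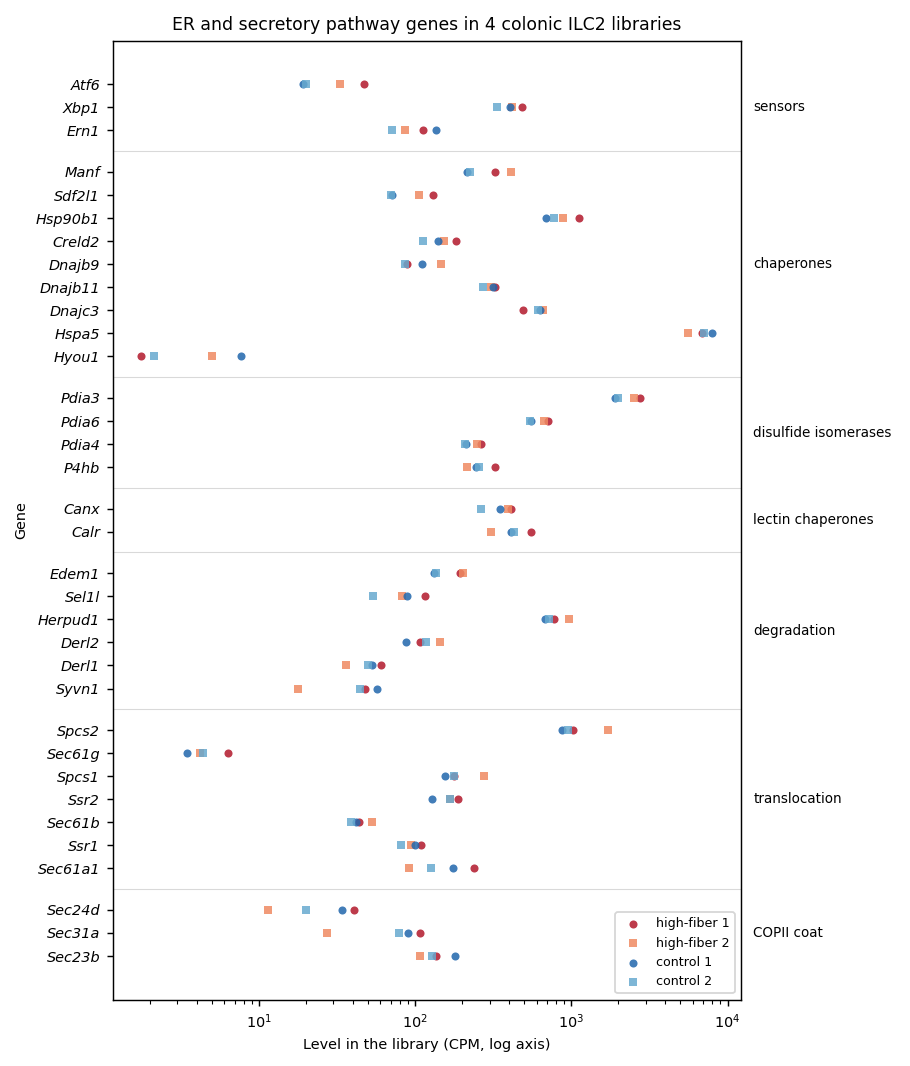
Level of each of the 34 genes (rows, grouped by class) in each of the 4 libraries, in CPM on a log axis. For Manf, Sdf2l1, Atf6, Edem1 and Pdia3 both high-fiber points lie right of both control points, and for Hspa5 both lie left of them.

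The comparison asked which of these transcripts differ between the high-fiber and the control diet. On balance the members stood somewhat higher in high-fiber mice, with a median log2 fold change of 0.28 (high-fiber over control) against -0.016 over all 11841 tested genes. Log2 fold changes were positive for 25 of the 34 (73.5%), and 48.8% of all tested genes were positive. For 15 members (44.1%) both high-fiber libraries were above both control libraries, against 18.5% of all tested genes, and for 1 member, Hspa5, both were below (19.6% of all tested genes).

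No single member passed the test. With p-values of edgeR's quasi-likelihood test adjusted by Benjamini-Hochberg over all genes, 0 members were called higher and 0 lower, while 0.0338% of all tested genes were called higher and 0% lower. EdgeR's unadjusted p was under 0.05 for 4 members (Manf, Sdf2l1, Atf6 and Edem1), all higher, while 4.7% of all tested genes were higher and 4.1% lower at that level. DESeq2 called 0 members, against 1.28% of genes called higher and 0.635% lower, and its unadjusted p was under 0.05 for 5 members, all higher, against 4.33% of genes higher and 3.35% lower. The fifth was Pdia3. Limma-voom called 0 members, and 0 of all genes. The count of 4 was 0 without control library 1, where 1.82% of all genes were higher at that level, and 0 without control library 2, where 1.99% were, fits in which the lone control mouse is assumed to vary like the others. The members were picked with earlier results of these data known, so these counts carry no test of their own.

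**Figure D3:**
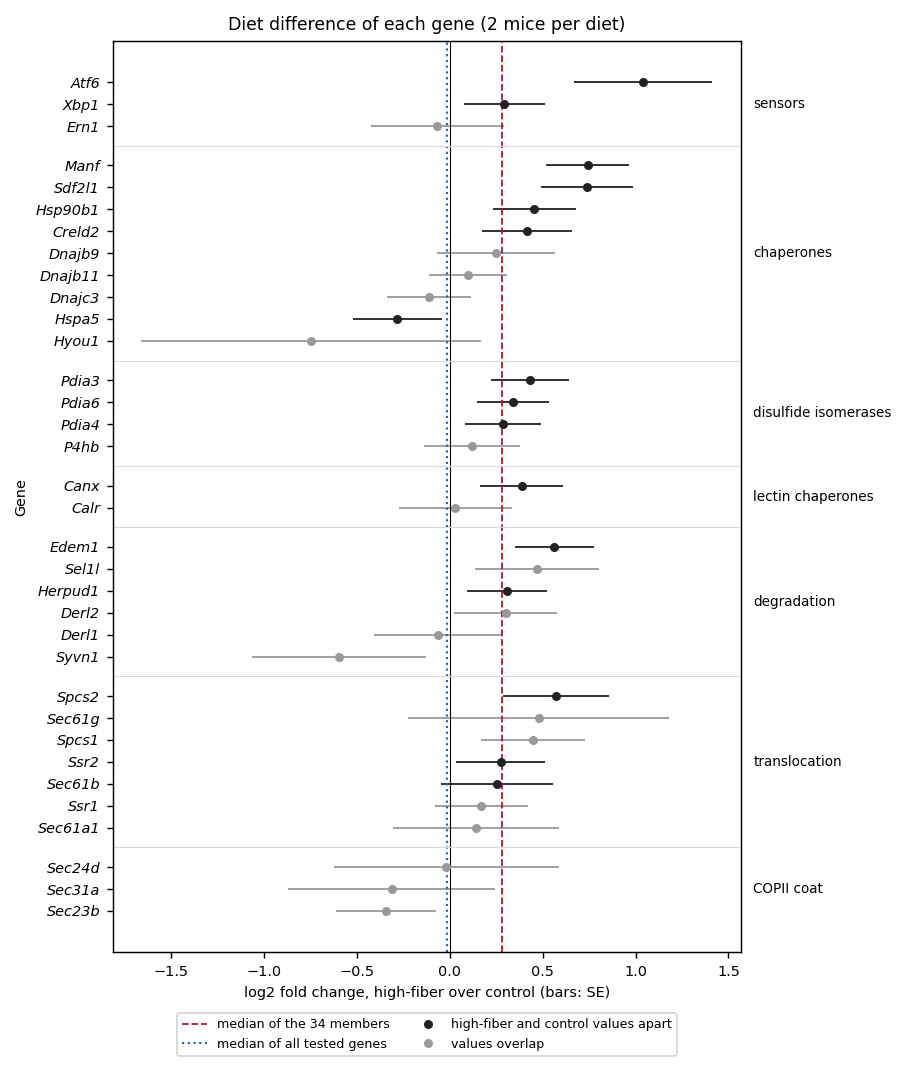
Log2 fold change of each member, high-fiber over control, with its standard error as a bar (2 mice per diet). Black points mark genes whose high-fiber and control values do not overlap, the dashed line the members' median of 0.28 and the dotted line the median of all tested genes of -0.016.

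Among the sensors, Atf6, the membrane-bound factor cut free in the Golgi under stress, had the largest positive log2 fold change of the 34. It was at 46.8 and 33.1 CPM in the high-fiber libraries, against 19.1 and 20.1 CPM in the control libraries. Every high-fiber value was above every control value, and the log2 fold change was 1.04 ± 0.37 (SE; edgeR adjusted p = 0.493). Its level per kilobase of exon was low, at 3.22 CPM per kilobase, rank 32 of 34. Xbp1, whose mRNA is spliced by IRE1 to make an active factor, was at 486 and 420 CPM in high-fiber mice and at 404 and 335 CPM in control mice. The diets did not overlap, by a small margin, and the log2 fold change was 0.29 ± 0.22 (edgeR adjusted p = 0.787). Gene counts do not separate the spliced from the unspliced form. Ern1, which encodes IRE1, was at 113 and 86.4 CPM in high-fiber mice, inside the spread of the control libraries at 137 and 71.1 CPM, and its log2 fold change was -0.068 ± 0.36.

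Among the 9 chaperones and their helpers, Manf and Sdf2l1 had the smallest p of all members. Manf, a small secreted ER protein induced by unfolded chains, was at 324 and 411 CPM in high-fiber mice and at 215 and 224 CPM in control mice. Its log2 fold change was 0.74 ± 0.22, with an edgeR adjusted p of 0.447 and a DESeq2 adjusted p of 0.103. Exons of Manf overlap those of 3 annotated genes over 326 bases, which could share reads. The same holds for other members, 11 in all, among them Hsp90b1 (632 bases), Spcs1 (252 bases) and Ssr2 (239 bases). Sdf2l1, a partner of BiP that works with its DNAJ helpers, was at 130 and 106 CPM in high-fiber mice and at 71.3 and 70.5 CPM in control mice (0.74 ± 0.25, edgeR adjusted p = 0.465). For both genes the 2 control mice were close together and both high-fiber mice stood above them.

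Hsp90b1, which encodes the ER HSP90 GRP94, was at 1126 and 880 CPM in high-fiber mice and at 686 and 780 CPM in control mice (0.45 ± 0.22, edgeR adjusted p = 0.653). Creld2, an ER stress-induced isomerase-like protein, was at 182 and 154 CPM in high-fiber mice and at 140 and 112 CPM in control mice (0.42 ± 0.24). Neither gene's diets overlapped. The DNAJ proteins hand clients to BiP, and all 3 of their genes had overlapping diets. Dnajb9 was at 89.1 and 147 CPM in high-fiber mice and at 110 and 86.6 CPM in control mice. Dnajb11 was at 323 and 307 CPM in high-fiber mice and at 316 and 271 CPM in control mice, and Dnajc3 at 491 and 659 CPM against 630 and 612 CPM.

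Hspa5, which encodes BiP, the HSP70 of the ER and the classical target of the unfolded protein response, had values in the opposite order. It was at 6835 and 5588 CPM in high-fiber mice and at 7994 and 7109 CPM in control mice, so both high-fiber values were below both control values. The log2 fold change was -0.28 ± 0.24 (edgeR adjusted p = 0.814), and it stayed between -0.41 and -0.15 without any 1 library. Hspa5 alone made up 36.9% and 32.6% of the members' summed CPM in high-fiber mice and 46.3% and 43.6% in control mice. With Hspa5 included the chaperones summed to 9502 and 8257 CPM in high-fiber mice, against 10170 and 9268 CPM in control mice. With Hspa5 set aside, a split chosen after its values were seen, the other 8 summed to 2667 and 2669 CPM in high-fiber mice and to 2176 and 2158 CPM in control mice. Hyou1, a large HSP70-like chaperone, had few reads, with 51 and 102 counts in high-fiber mice and 231 and 45 counts in control mice, and no order between diets. How reads were counted is not given in the sources used here, and the low counts of Hyou1 and Sec61g may depend on it.

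All 4 disulfide isomerases, which form and rearrange disulfide bonds in the ER, had positive log2 fold changes. Pdia3, the isomerase that works with calnexin and calreticulin on glycoproteins, was next to Hspa5 by level per kilobase. It was at 2761 and 2502 CPM in high-fiber mice and at 1911 and 1991 CPM in control mice, a log2 fold change of 0.43 ± 0.21 (edgeR adjusted p = 0.645). Pdia6 was at 709 and 673 CPM in high-fiber mice and at 551 and 541 CPM in control mice (0.34 ± 0.20, edgeR adjusted p = 0.707). Pdia4 was at 264 and 248 CPM in high-fiber mice and at 211 and 208 CPM in control mice (0.29 ± 0.20). For these 3 genes the mice of 1 diet lay close together and the diets did not overlap. P4hb, the founding member of the family, was at 325 and 216 CPM in high-fiber mice, around the 244 and 255 CPM of the control diet. The class summed to 4058 and 3639 CPM in high-fiber mice, against 2917 and 2995 CPM in control mice, and Pdia3 held most of it in every library.

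The lectin chaperones Canx and Calr bind sugar-bearing chains. Canx, the membrane-bound calnexin, was at 411 and 392 CPM in high-fiber mice and at 348 and 266 CPM in control mice (0.39 ± 0.22, edgeR adjusted p = 0.714), with no overlap. Calr, the soluble calreticulin, was at 553 and 306 CPM in high-fiber mice, above and below the 413 and 431 CPM of the control diet. Its log2 fold change of 0.029 ± 0.30 (edgeR adjusted p = 0.990) had no stable sign: it turned to -0.014 without scaling factors.

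Of the 6 degradation genes, Edem1 had the smallest p. It encodes a lectin that passes misfolded glycoproteins to the degradation machinery, and it was at 193 and 202 CPM in high-fiber mice and at 132 and 136 CPM in control mice. The log2 fold change was 0.56 ± 0.21 (edgeR adjusted p = 0.515) and lay between 0.52 and 0.63 without any 1 library. Herpud1, a membrane scaffold of the degradation complex and among the 4 members of highest level per kilobase, was at 772 and 960 CPM in high-fiber mice and at 675 and 724 CPM in control mice (0.31 ± 0.21, edgeR adjusted p = 0.765). The diets did not overlap for these 2 genes, and they did for the other 4. Sel1l, the partner of the ubiquitin ligase HRD1, was at 116 and 82.2 CPM in high-fiber mice and at 88.5 and 53.7 CPM in control mice. Syvn1, which encodes HRD1 itself, was at 47.6 and 17.9 CPM in high-fiber mice and at 56.6 and 44.6 CPM in control mice (-0.60 ± 0.47). Derl1 and Derl2, which line the exit channel, had log2 fold changes of -0.065 ± 0.34 and 0.30 ± 0.28.

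All 7 translocation genes had positive log2 fold changes, from 0.14 to 0.57. The signal peptidase subunit genes Spcs2 and Spcs1 had the smallest p of the class. Spcs2 was at 1018 and 1707 CPM in high-fiber mice and at 877 and 958 CPM in control mice (0.57 ± 0.29, edgeR adjusted p = 0.655). High-fiber library 2 set the size of that difference, since without it the log2 fold change was 0.15. Spcs1 was at 177.0 and 276 CPM in high-fiber mice and at 155 and 177.1 CPM in control mice (0.45 ± 0.28, edgeR adjusted p = 0.732). Here high-fiber library 2 was again the highest and the other high-fiber library lay within the control values, and the log2 fold change was 0.091 without library 2.

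The translocon-associated protein genes Ssr2 and Ssr1 had log2 fold changes of 0.27 ± 0.24 and 0.17 ± 0.25. The SEC61 channel is built of an alpha, a beta and a gamma subunit. Sec61a1 (alpha) was at 239 and 91.1 CPM in high-fiber mice, above and below the 174 and 126 CPM of the control diet. Sec61b (beta) was at 43.6 and 53.3 CPM in high-fiber mice and at 41.8 and 38.9 CPM in control mice. Sec61g (gamma) held 182 and 85 counts in high-fiber mice and 105 and 92 counts in control mice. Transcripts of Sec61b, Sec61g, Spcs2 and Derl1 each match another annotated gene at 95% identity or more over at least 300 bases. The match covers 84.0% of the Sec61b transcript, 22.6% for Sec61g, 23.5% for Spcs2 and 20.5% for Derl1. The match of Sec61a1 is Gm44170, an antisense gene of the same locus whose exons overlap its own over 549 bases. Reads of all these genes may be split or lost, and their levels are uncertain. The class summed to 1782 and 2393 CPM in high-fiber mice and to 1479 and 1552 CPM in control mice. Of these sums Spcs2 alone held 1018 and 1707 CPM in high-fiber mice and 877 and 958 CPM in control mice.

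The 3 COPII coat genes, which bud cargo off the ER, were the class with a negative median, -0.31, a sign that depended on 1 mouse. Sec31a, of the outer coat, was at 107 and 27.1 CPM in high-fiber mice and at 90.4 and 79.3 CPM in control mice (-0.31 ± 0.56, edgeR adjusted p = 0.928). Sec24d, a cargo-binding subunit, was at 40.6 and 11.4 CPM in high-fiber mice and at 33.9 and 19.9 CPM in control mice. Sec23b, its inner-coat partner, was at 136 and 107 CPM in high-fiber mice and at 179 and 129 CPM in control mice (-0.34 ± 0.27, edgeR adjusted p = 0.80). High-fiber library 2 was the lowest of the 4 libraries for all 3 genes. The class median was 0.33 without high-fiber library 2 and -1.24 without high-fiber library 1. In the fit without high-fiber library 1, Sec31a (-1.62) and Syvn1 (-1.49) had an unadjusted p under 0.05 by edgeR, as had 5 members with higher values; of all genes 6.12% were higher and 6.55% lower at that level.

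**Figure D4:**
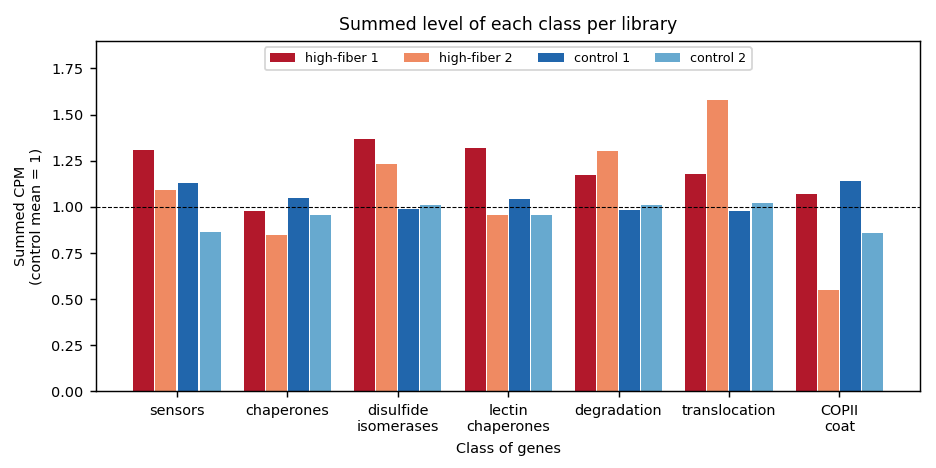
Summed CPM of each class in each library, divided by the mean of the 2 control libraries (dashed line at 1). Both high-fiber bars are above both control bars for disulfide isomerases (1.37 and 1.23), degradation (1.17 and 1.30) and translocation (1.18 and 1.58), and high-fiber library 2 falls to 0.548 for the COPII coat. Most of the CPM in every library came from Pdia3 for disulfide isomerases, from Herpud1 for degradation and from Spcs2 for translocation. These bars therefore largely follow single genes.

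Across the mice, high-fiber library 1 was the highest of the 4 libraries for 20 members and high-fiber library 2 for 9, against 5 for control library 1 and 0 for control library 2. High-fiber library 2 was also the lowest for 9 members, among them Syvn1, Sec61a1 and the 3 COPII genes, so the 2 high-fiber mice differed in which genes they held high. In that library the tested genes with more than 5773 exonic bases stood at a median log2 ratio of -0.123 to high-fiber library 1, and those with fewer than 3189 at 0.0955. In the control pair the same medians of library 2 over library 1 were -0.081 and 0.077. The part of transcript length in the members' values was not tested. Of the 34 members, 23 kept the sign of their log2 fold change in each of the 4 fits without 1 library, 20 of them positive and 3 negative.

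The diet difference was also set out by promoter element. The median log2 fold change was 0.20 over the 10 genes with an ERSE or ERSE-II, 7 of them positive, and 0.29 over the 18 genes with a window and neither of these, 14 of them positive. Members without a window are in neither group: Atf6 (1.04), Manf (0.74), Ssr2 (0.27), Sec61a1 (0.14), Derl1 (-0.065) and Hyou1 (-0.75). Over the 13 other tested genes with either element the median was -0.037, and 5 were positive. The difference between the lists was not tested.

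Other genes of the pathway, 123 in 6 lists that were drawn up with results known, were measured beside the members. Of these, 115 were tested and 0 were called by edgeR or DESeq2. The log2 fold change was positive in 74 (64.3%, against 48.8% of all tested genes) and negative in 41 (median 0.12). EdgeR's unadjusted p was under 0.05 for 6 of the 115 with higher and 3 with lower values. Over all tested genes 4.7% were higher and 4.1% lower at that level. The lists of other folding genes (17 of 22 tested genes positive, median 0.16) and of other targeting and translocation genes (14 of 17 positive, median 0.20) had the most positive members by share. Prdx4, an ER peroxidase, was at 23.1 and 43.0 CPM in high-fiber mice and at 12.5 and 15.7 CPM in control mice (1.22 ± 0.48, edgeR adjusted p = 0.533). Ero1b, the oxidase that recharges disulfide isomerases, was at 24.9 and 40.5 CPM in high-fiber mice and at 14.3 and 17.5 CPM in control mice (1.03 ± 0.43). Both genes had high-fiber values above all control values.

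Sec11c, a catalytic subunit of the same signal peptidase as Spcs1 and Spcs2, was at 939 and 1494 CPM in high-fiber mice and at 690 and 739 CPM in control mice (0.77 ± 0.27, edgeR adjusted p = 0.488). Like Spcs1 and Spcs2, it was highest in high-fiber library 2. Values of Spcs3 and Sec11a, further signal peptidase genes of the list, are not given here. Sec63, which helps open the channel, had a log2 fold change of 0.50 ± 0.22. Selenos, a selenoprotein of the degradation complex, was at 179 and 207 CPM in high-fiber mice and at 122 and 116 CPM in control mice (0.70 ± 0.22), and the ubiquitin-conjugating enzyme gene Ube2j1 had a log2 fold change of 0.37 ± 0.22.

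In vesicle transport (19 of 29 positive, median 0.12), Tfg, which organises ER exit sites, had the smallest p of all 115 genes. It was at 126 and 104 CPM in high-fiber mice and at 55.1 and 62.5 CPM in control mice (0.98 ± 0.26, edgeR adjusted p = 0.447, DESeq2 adjusted p = 0.0537). Sec24a, another cargo-binding subunit of COPII, was at 15.0 and 16.3 CPM in high-fiber mice and at 51.7 and 27.9 CPM in control mice (-1.37 ± 0.45, edgeR adjusted p = 0.456). Lman2, a cargo lectin named after its value was seen, had a log2 fold change of 0.59 ± 0.21. Among N-glycosylation genes (10 of 16 positive, median 0.15), the oligosaccharyltransferase genes Stt3b and Dad1 differed in sign, at -0.65 ± 0.22 and 0.41 ± 0.21, and both had diets that did not overlap. Other degradation genes had 10 of 17 positive and a median of 0.082.

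The list of PERK-arm genes and other regulators was the 1 list with a negative median, -0.28, and 4 of its 14 tested genes were positive. Ppp1r15a, which encodes GADD34, the phosphatase subunit that ends the translation block set by PERK and that is also an immediate early gene, was at 4358 and 2427 CPM in high-fiber mice and at 7285 and 5570 CPM in control mice. Both high-fiber mice were below both control mice, with a log2 fold change of -0.92 ± 0.34 (edgeR adjusted p = 0.499). Its constitutive relative Ppp1r15b was at 61.6 and 58.9 CPM in high-fiber mice and at 92.7 and 74.9 CPM in control mice (-0.48 ± 0.26). Eif2ak3, which encodes PERK, was at 5.13 and 4.96 CPM in high-fiber mice and at 15.4 and 5.24 CPM in control mice (-1.10 ± 0.74), and control library 1 stood above the other 3. Among other genes of the PERK arm, Trib3 had a log2 fold change of -1.21 ± 1.11, with 0 counts in high-fiber library 2. Atf4 had a log2 fold change of -0.35 ± 0.31, and Ddit3, which encodes CHOP, one of 0.12 ± 0.35. Gene counts do not measure translation, the step that PERK blocks. Eif2ak3, Trib3, Atf4 and Ddit3 were named after their values were seen. The gene of higher value at an unadjusted p under 0.05 was Wfs1, with 15 and 34 counts in high-fiber mice and 0 in both control libraries, a floor of 3 counts each.

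**Figure D5:**
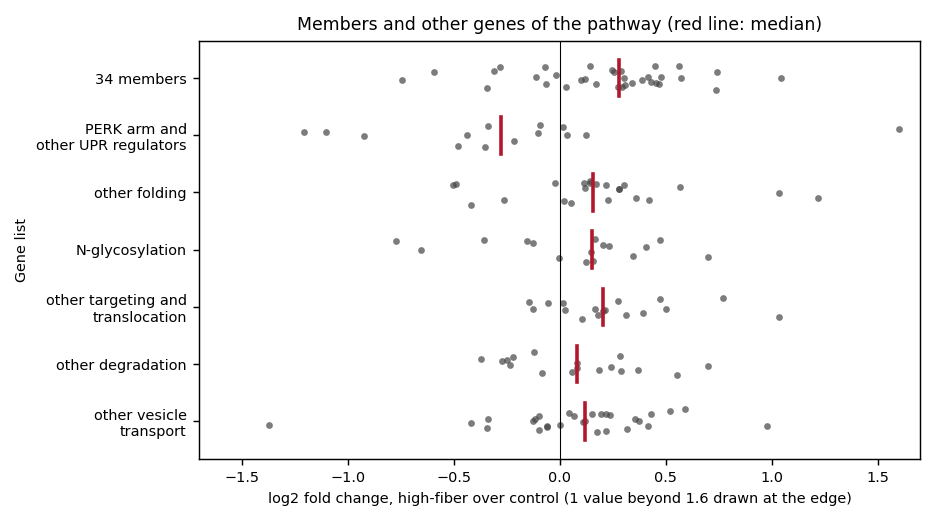
Log2 fold change of each tested gene, high-fiber over control, for the 34 members and the 6 other lists (1 point per gene, red line at the median). The members' median is 0.28, that of the PERK arm and other regulators -0.28, and the medians of the other 5 lists lie between 0.082 and 0.20; the point at the right edge is Wfs1, whose control counts are 0.

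Transcripts of B and plasma cells, of which plasma cells are rich in ER, were measured beside these genes. Without Xbp1 and Derl3, which also belong to the pathway, 18 B and plasma cell markers summed to 943 and 1923 CPM in high-fiber mice and to 836 and 757 CPM in control mice. Of the 20 markers with these 2, 13 were tested, and 10 of them (76.9%) were positive, against 48.8% of all tested genes. At an edgeR unadjusted p under 0.05, 6 were higher and 1 lower, against 4.7% and 4.1% of all tested genes. Log2 fold changes of the 13 ran from -3.56 to 8.23, so the list did not move as a whole. For 9 both high-fiber libraries were above both control libraries (18.5% of all tested genes), and for 1 both were below (19.6%). EdgeR called 0 of them at an adjusted p under 0.05. DESeq2 called 1 of them higher, Irf4, a factor not confined to B cells, against 1.28% of genes called higher. Irf4 was at 89.9 and 58.2 CPM in high-fiber mice and at 27.1 and 22.2 CPM in control mice (DESeq2 adjusted p = 0.00639). The abundant antibody transcript Igkc was at 112 and 458 CPM in high-fiber mice and at 37.4 and 4.15 CPM in control mice. Jchain was at 88.0 and 286 CPM in high-fiber mice and at 33.4 and 4.05 CPM in control mice. Cd79b was at 39.4 and 57.5 CPM in high-fiber mice and at 24.0 and 27.5 CPM in control mice. Ighm, at 418 and 548 CPM in high-fiber mice and 482 and 615 CPM in control mice, had overlapping diets, as had Prdm1, at 71.0 to 165 CPM over the 4 libraries. Other genes of the list were at or near 0: Mzb1 held 12 and 1 counts in high-fiber mice and 0 and 0 in control mice, Sdc1 47 and 0 against 3 and 0, and Tnfrsf17 0 in all 4 libraries. Igkc was highest in high-fiber library 2, as were Spcs2, Spcs1, Sec11c and Manf, while Pdia3, Hsp90b1, Sdf2l1 and Atf6 were highest in high-fiber library 1. The part of B lineage RNA in the members' values was not tested, and in bulk samples more cells of a type and more RNA per cell cannot be told apart.

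Secretory epithelium, the other ER-rich tissue of the colon, left few reads: its 14 markers summed to 28.3 and 37.3 CPM in high-fiber mice and to 25.1 and 27.8 CPM in control mice. Nearly all of that was Epcam, and Muc2, Tff3, Cdh1 and Chga were at 0 in all 4 libraries. Markers of macrophages and dendritic cells (10 genes) summed to 145 and 168 CPM in high-fiber mice and to 60.7 and 138 CPM in control mice. The 8 T cell markers summed to 468 and 550 CPM in high-fiber mice and to 605 and 665 CPM in control mice, mostly Trbc1, while Cd8a and Cd8b1 were at 0 in all 4 libraries. The 7 mast cell markers summed to 668 and 379 CPM in high-fiber mice and to 275 and 214 CPM in control mice. That sum was almost wholly Kit, which ILC2s also express. Kit had an edgeR log2 fold change of 1.11 and was the 1 gene of this list that DESeq2 called higher. Of all genes, DESeq2 called 1.28% higher, and edgeR called 0 of this list. Cpa3 held 0 and 0 counts in high-fiber mice and 40 and 21 counts in control mice. Mcpt1, Mcpt2, Cma1 and Tpsb2 were at 0 in all 4 libraries. Among fibroblast and endothelial markers Pecam1 carried the sums of 64.5 and 42.2 CPM in high-fiber mice and of 44.2 and 42.4 CPM in control mice.

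In GRCm38 the 4 members of smallest p lie on 4 chromosomes. Manf (NCBI gene 74840) lies on chromosome 9 from 106888753 to 106891938, Sdf2l1 (NCBI gene 64136) on chromosome 16 from 17130138 to 17132383, Atf6 (NCBI gene 226641) on chromosome 1 from 170704457 to 170868585, and Edem1 (NCBI gene 192193) on chromosome 6 from 108824045 to 108859356. Hspa5 (NCBI gene 14828) lies on chromosome 2 from 34772090 to 34776529.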

How the data were processed

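The 4 libraries are bulk RNA-seq of colon ILC2s, 1 mouse each. Per the labels' protocols, libraries were made with a SMARTer ultra-low-input kit. The submitters' processing notes list CASAVA 1.8.2, STAR 2.3.0 and mm10 but no roles. How reads were counted, and whether strand was used, is not given in the sources used here. Overlapping or near-identical genes may therefore share reads (exons of 11 members overlap another gene's). The deposited table holds whole-number counts per NCBI gene, not normalized. Symbols came from RefSeq GRCm38.p6 for 25275 of 27179 identifiers. Exon lengths and the BLAST 2.17.0 search for near-identical transcripts used GENCODE annotation of GRCm38.

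The main test was edgeR 4.0.16 under R 4.3.3: filterByExpr (11841 of 15425 genes with any count), TMM, glmQLFit with legacy=FALSE, robust off, glmQLFTest, Benjamini-Hochberg over all tested genes at 0.05. The design held an intercept and diet, with 2 residual degrees of freedom and a common biological coefficient of variation of 0.607. A standard error is the log2 fold change divided by the square root of its F. CPM used TMM-scaled library sizes, and a 0 allows up to 3 counts, for counting error only. The labels pair no mice across diets, and p-values measure the spread between mice. Alternatives were other scalings and filters, DESeq2 1.42.0, limma-voom (limma 3.58.1), other fit settings, a replicate block, leaving out each library, and a threshold of 0.1. The members, classes and lists were chosen with earlier results of these data known. Full values were given for members at an unadjusted p under 0.05, for the 2 of smallest p per class and the 4 of highest level per kilobase; of the other lists, up to 2 genes of smallest p at 5 CPM or more were named, and other names were added after their values were seen.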

Additional observations from a re-analysis of the deposited data

How the results depend on the processing

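The members' median log2 fold change stayed between 0.18 and 0.36 in each alternative, and 23 to 28 members were positive (24 of the 32 kept under a filter of 5 CPM in 2 libraries). No alternative called a member, also at an adjusted p of 0.1; the smallest adjusted p of a member was 0.103, for Manf with DESeq2. Without 1 library, 0 to 5 members were higher at an unadjusted p under 0.05 and 0 to 2 lower, where 1.82% to 6.12% of all genes were higher and 1.98% to 6.55% lower. Calls over all genes moved: 159 higher and 79 lower with DESeq2, 8 and 1 under the filter of 5 CPM, and 0 higher with legacy=TRUE, limma-voom, no filter or the replicate block, and 0 to 1 without 1 library. Calr turned to -0.022 with limma-voom, -0.014 without scaling factors and -0.031 with the replicate block, and ran from -0.44 to 0.39 without 1 library; Sec31a ran from -1.62 to 0.33. The cause was not tested. Deviations of the same-numbered mice correlated at 0.0685 across genes. In both diets library 1 held more counts (29263068 high-fiber, 30406730 control) than library 2 (20750263 and 20253987). Whether same-numbered samples shared a batch was not tested, and this correlation cannot decide it. With the replicate block, 4 members were higher at an edgeR unadjusted p under 0.05, where 4.76% of all genes were. Hyou1 and Sec61g held at most 231 counts in a library, and the standard errors of their log2 fold changes were 0.92 and 0.70. The part of depth and of spread between mice in these errors was not tested.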
